A study of Arabidopsis thaliana with 8 samples.

Results

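Transcripts of seedlings mutant for the G protein beta subunit were compared genome-wide with those of wild type after growth in blue light. The 4 libraries labelled for these 2 genotypes, 2 agb1 and 2 WT, were taken by their labels from a series of 8 that also holds 2 hy5 and 2 cry1 cry2 libraries. All seedlings were Arabidopsis thaliana of the Col-0 ecotype, and RNA came from whole seedlings. WT was the unmutated ecotype, agb1 carried the agb1-2 allele, hy5 was a mutant of unstated allele, and cry1 cry2 was the double mutant of both cryptochrome genes. Seeds on medium with 1% sucrose stood at 4 degrees for 3 days, received white light for 12 h and were then kept in blue light for 4.5 days. The beta subunit is represented by 1 allele, and the labels call the 2 libraries of a genotype biological replicates without saying whether they came from separate cultures. The p-values therefore measure the spread between libraries of a genotype, estimated over all genotypes of the series, which may be partly technical.

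A heterotrimeric G protein has an alpha, a beta and a gamma subunit. The beta and gamma subunits form a dimer that leaves the alpha subunit when the complex is active, and both then act on partners of their own. Arabidopsis has a single gene for the beta subunit, AGB1, which is known for roles in seedling growth, root branching, stomata, immunity and the response to sugar and abscisic acid. Cryptochromes are blue-light receptors, and HY5 is a bZIP factor that promotes greening and short stems in the light. Their mutants serve below for direct comparison with agb1. Their libraries also entered the filter, the scaling and the estimate of spread used for agb1 against WT.

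The WT libraries held 23098347 and 19763086 counted reads and the agb1 libraries 18850338 and 15651218. Levels are given as CPM, the usual depth-normalised read count, here with TMM-scaled library totals, and compare samples, not genes of different length. Of 27628 loci, 20695 passed the filter on low counts. A locus was called at an adjusted p under 0.05 (edgeR's quasi-likelihood test with Benjamini-Hochberg adjustment over all loci tested), and only called loci are said to have risen or fallen.

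AGB1 (AT4G34460; chromosome 4, bases 16477031 to 16479620 of TAIR10.1, minus strand) was examined first. Its transcript read 75.1 and 64.3 CPM in WT and 44.4 and 43.3 CPM in agb1, so that both agb1 libraries lay below both WT libraries and the transcript was still present (log2 fold change -0.67 ± 0.07 SE, adjusted p = 2.73e-08). The agb1 mean was 62.9% of the WT mean. All 4 annotated transcript models kept reads in agb1: model 1 had 464 and 419 reads in WT and 245 and 182 in agb1, and model 3, the most reduced, had 372 and 283 in WT and 139 and 112 in agb1. A lower read number alone does not show that the protein is absent.

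Of 17 G protein subunit and partner genes tested, 1 rose and 2 fell, AGB1 included, at a median log2 fold change of -0.06 (1 lower with DESeq2 and 1 lower without WT replicate 1 or agb1 replicate 2). Over all loci tested, 8.76% rose, 8.41% fell and 17.2% changed in either direction, with a median log2 fold change of -0.00, so the share of G protein genes called was close to that of all loci. GPA1, the alpha subunit, read 71.0 and 72.2 CPM in WT and 69.7 and 66.1 CPM in agb1 (log2 fold change -0.07 ± 0.06 SE, adjusted p = 0.457). The extra-large alpha subunits XLG1, XLG2 and XLG3 stood at 0.01 ± 0.06, -0.07 ± 0.07 and 0.04 ± 0.07 on the log2 scale, none of them called. Among the gamma subunits, AGG1 read 6.26 and 6.70 CPM in WT and 5.87 and 7.005 CPM in agb1 and AGG2 3.84 and 4.45 CPM in WT and 3.73 and 2.95 CPM in agb1, neither called. AGG3, the third gamma subunit, was low at 1.698 and 1.43 CPM in WT and 2.48 and 2.88 CPM in agb1 and was called higher (log2 fold change 0.76 ± 0.26 SE, adjusted p = 0.0415). That call was lost with DESeq2 (adjusted p = 0.244) and on leaving out any 1 of the 4 libraries, where the adjusted p ranged from 0.0918 to 0.23. RGS1, the protein that accelerates GTP hydrolysis by the alpha subunit, read 18.8 and 17.7 CPM in WT and 15.3 and 12.1 CPM in agb1 (log2 fold change -0.40 ± 0.11 SE, adjusted p = 0.00833); DESeq2 did not make this call (adjusted p = 0.0746), nor did the fits that omit WT replicate 1 or agb1 replicate 2 (adjusted p = 0.0964 and 0.203).

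Across the genome, 3553 loci changed in agb1, 1813 up and 1740 down. Most changes were modest: the median called locus differed 1.32-fold, the middle 50% of called loci differed 1.21- to 1.55-fold, and 212 rose (1.02% of loci tested) and 181 fell (0.875%) at least 2-fold, together 1.9%. DESeq2 called 2059 loci, and leaving out 1 library left 2350 to 2477. A count over a gene list below is followed, in brackets, by its value in those settings where a count of 2 or more moves by more than 1.5 times. Each list count is to be read beside the 8.76% of all loci that rose and the 8.41% that fell. Without adjustment, 27.8% of loci had a p under 0.05. The balance of directions depended on scaling. With library totals alone, 31.4% of calls were higher against 51.0% with TMM, and that setting moved the median log2 fold change of all loci to -0.07. The 10 most abundant loci of each library took 9.37% to 9.55% of reads in agb1 and 7.26% to 7.62% in WT.

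**Figure D1:**
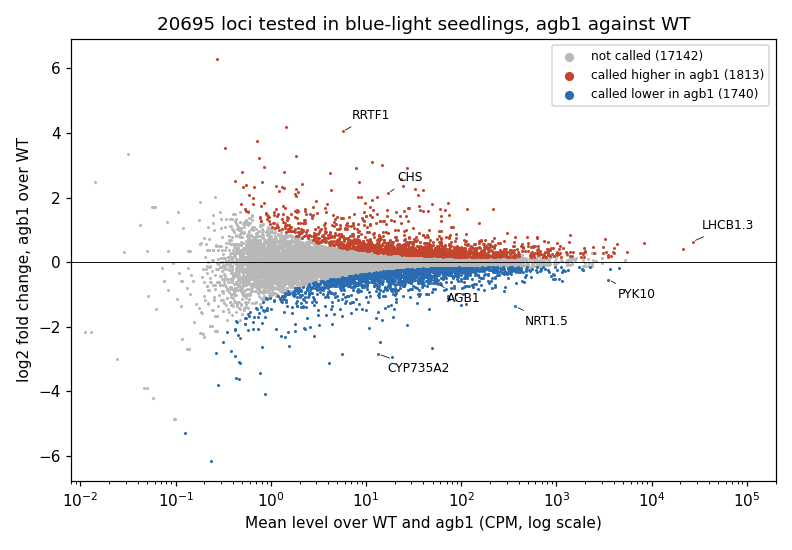
Each point is 1 locus: the mean of the WT and agb1 group means (CPM, log scale) against the log2 fold change of agb1 over WT, with called loci in colour and 7 genes named. Called loci lie on both sides of 0 at all but the lowest levels, 1813 above and 1740 below.

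Among called loci with a mean of at least 5 CPM, the largest increases included stress-response regulators and proteins known mostly by their family. RRTF1 (AT4G34410; chromosome 4, bases 16451876 to 16453260), an ERF transcription factor of the redox response, read 0.67 and 0.614 CPM in WT and 11.5 and 9.96 CPM in agb1. The agb1 values were thus far above WT and above both other mutants, which read 0.528 and 0.507 CPM in hy5 and 0.277 and 0.113 CPM in cry1 cry2. The increase over WT was 4.05 ± 0.23, adjusted p = 8.28e-14. The annotation places AT4G34412 over the same bases, and since counting by strand is not given, their reads cannot be told apart; AT4G34412 itself was not called. CML38, a calmodulin-like calcium sensor, read 2.37 and 2.76 CPM in WT and 15.1 and 13.5 CPM in agb1 (2.49 ± 0.17, adjusted p = 2.45e-12). ORA47, an AP2/ERF factor, read 3.397 and 3.2 CPM in WT and 13.8 and 12.8 CPM in agb1 (2.02 ± 0.17, adjusted p = 2.58e-10). ACS6, which makes the ethylene precursor, read 13.5 and 13.8 CPM in WT and 55.1 and 59.7 CPM in agb1 (2.07 ± 0.08, adjusted p = 6.54e-18). DIC2, a mitochondrial dicarboxylate carrier, read 12.1 and 10.4 CPM in WT and 55.1 and 52.5 CPM in agb1 (2.25 ± 0.10, adjusted p = 7.50e-17). Chalcone synthase, CHS, which opens flavonoid synthesis, read 6.70 and 5.93 CPM in WT and 28.7 and 26.8 CPM in agb1 (2.13 ± 0.11, adjusted p = 8.83e-15). In each of these genes both agb1 libraries lay above both WT libraries, which was a condition of their choice. Over all loci tested, the genotypes did not overlap in 54.8%, and among called loci in 99.97%. Non-overlap of a called gene, here or below, therefore adds little to its call.

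AT3G16670, annotated as a pollen Ole e 1 allergen and extensin family protein, read 3.49 and 3.02 CPM in WT and 26.0 and 26.9 CPM in agb1 (3.01 ± 0.14, adjusted p = 2.92e-16). AT3G05727, of an S locus-related glycoprotein binding family, read 5.99 and 6.70 CPM in WT and 46.4 and 49.6 CPM in agb1 (2.92 ± 0.10, adjusted p = 2.20e-18). Both were near 0 in the other mutants, with at most 0.709 CPM in any hy5 or cry1 cry2 library. On chromosome 4 a cluster of AT4G22475, AT4G22485, AT4G22495 and AT4G22505 rose together, AT4G22485 from 7.02 and 6.34 CPM to 38.4 and 40.8 CPM. The annotation pairs these loci on opposite strands over shared bases, so the 4 increases may be fewer than 4 independent ones. AT4G29780, annotated as a nuclease, read 13.9 and 13.7 CPM in WT and 66.3 and 63.3 CPM in agb1, and AT5G17350 and AT4G27657, both uncharacterized, rose by 2.03 ± 0.12 and 2.02 ± 0.16 on the log2 scale.

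Under the same limit on level, the largest decreases included lipid-transfer, cytokinin and Casparian strip genes. AT3G58550, a lipid-transfer family protein, read 33.2 and 33.5 CPM in WT and 4.63 and 4.12 CPM in agb1 (-2.92 ± 0.11, adjusted p = 7.61e-18). CYP735A2, the hydroxylase that makes trans-zeatin forms of cytokinin, read 23.2 and 23.8 CPM in WT and 3.56 and 2.95 CPM in agb1. The WT values were several times the agb1 values, and hy5 and cry1 cry2 stood near or above WT at 21.9 and 22.1 CPM and 29.3 and 25.7 CPM (-2.84 ± 0.13, adjusted p = 2.89e-16 against WT). AT1G30760, a berberine-bridge family enzyme, read 86.5 and 84.0 CPM in WT and 13.3 and 13.9 CPM in agb1 (-2.65 ± 0.08, adjusted p = 1.49e-20). FACT, an acyltransferase that makes alkyl caffeates of root waxes, read 24.9 and 22.7 CPM in WT and 5.02 and 3.43 CPM in agb1 (-2.47 ± 0.13, adjusted p = 1.30e-14). CASP4, a scaffold of the Casparian strip, read 12.1 and 8.49 CPM in WT and 3.499 and 3.43 CPM in agb1 (-1.58 ± 0.16, adjusted p = 1.94e-08). The other large decreases were AT2G18370 (lipid transfer), AT2G16005 (lipid recognition), AT4G07820 (CAP superfamily), AT1G52000 (mannose-binding lectin), AT2G28780, AT2G14247, GulLO2, AT3G01260 and MLO12, between -2.05 ± 0.14 and -1.46 ± 0.15.

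QQS, an orphan gene known to influence starch and protein content, fell from 8.76 and 10.8 CPM to 1.52 and 1.17 CPM (-2.83 ± 0.22, adjusted p = 3.77e-11). It stood at 1.82 and 1.27 CPM in hy5 and 0.443 and 0.51 CPM in cry1 cry2, so that the hy5 values lay close to the agb1 values. The direct difference of agb1 from hy5 was not called (-0.16 ± 0.31, adjusted p = 0.693), and that from cry1 cry2 was (1.502 ± 0.41, adjusted p = 0.00229). AT2G14247 was called against neither mutant in these direct tests (-0.17 ± 0.23, adjusted p = 0.558 against hy5 and -0.10 ± 0.23, adjusted p = 0.727 against cry1 cry2). These comparisons share the agb1 libraries with the comparison to WT.

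**Figure D2:**
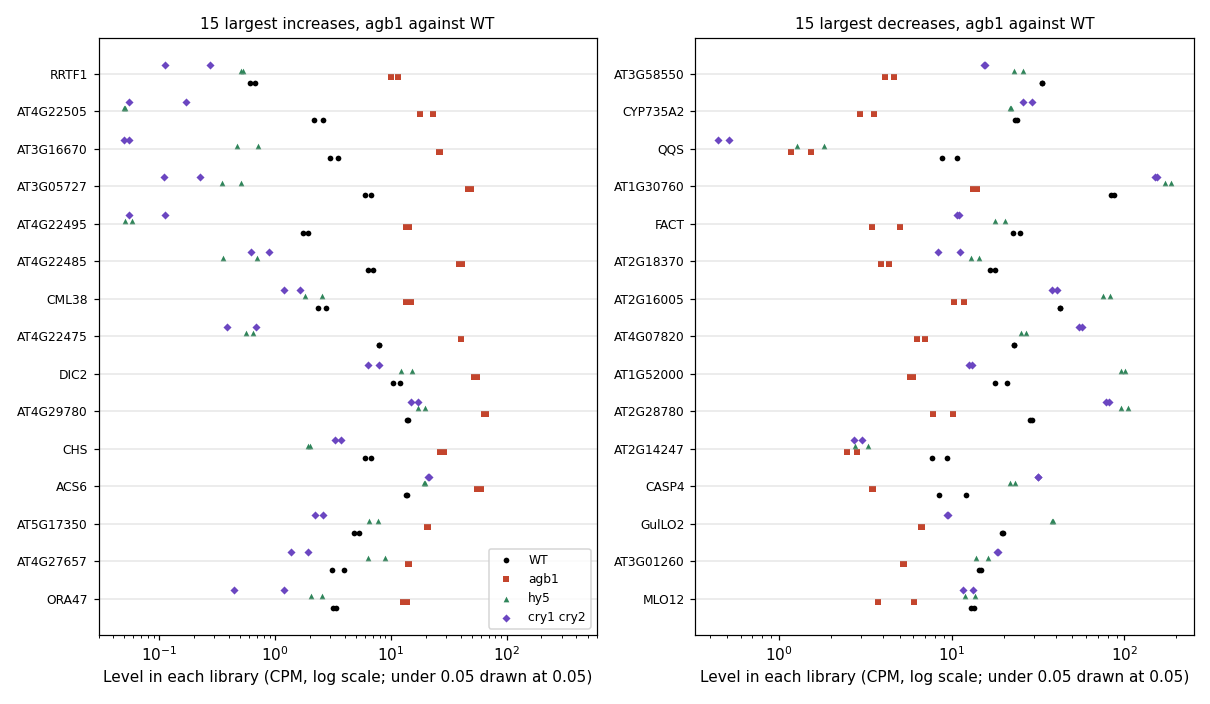
CPM in each of the 8 libraries (log scale) for the 15 largest increases (left) and 15 largest decreases (right) among called loci that averaged 5 CPM or more and did not overlap between WT and agb1. For QQS and AT2G14247 the hy5 values lie at or near the agb1 values; for CYP735A2 and CASP4 agb1 is the lowest of the 4 genotypes.

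Of the 258 genes chosen to be named, 90 overlap another annotated locus, so that their reads may include those of a neighbour. The 6 largest gains in CPM, a relative measure, were in antenna genes, a Rubisco small subunit gene and THI1. LHCB1.3, a chlorophyll-binding protein of the main photosystem II antenna, read 21901 and 20190.0 CPM in WT and 32832 and 32593 CPM in agb1 (0.64 ± 0.05, adjusted p = 1.37e-11). LHB1B2 read 19007 and 17486 CPM in WT and 24210.3 and 24003 CPM in agb1 and LHCB1.4 6867 and 6522 CPM in WT and 10146 and 9943 CPM in agb1, called at 0.40 ± 0.05 and 0.59 ± 0.05. These antenna genes are near-identical copies, and how reads that match several of them were counted is not given, so the share of each copy is uncertain. LHCB5, a minor antenna protein, read 3534 and 3365 CPM in WT and 4627 and 4693 CPM in agb1 (0.43 ± 0.05, adjusted p = 5.24e-08). RBCS1A, a Rubisco small subunit that also has close copies, read 3534 and 3489 CPM in WT and 5163 and 5248 CPM in agb1 (0.57 ± 0.05, adjusted p = 1.43e-10). THI1, which makes the thiazole moiety of thiamine in plastids, read 2516 and 2349.8 CPM in WT and 3892 and 4074 CPM in agb1 (0.71 ± 0.05, adjusted p = 5.43e-12).

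Of 30 nuclear photosystem and electron transport subunits tested, 27 rose, at a median log2 fold change of 0.31, and the other 3 did not pass the test. PSBT, PSBQ-1, PSAF and FNR1, which carries electrons from ferredoxin to NADP, rose by 0.59 ± 0.06, 0.48 ± 0.05, 0.45 ± 0.05 and 0.49 ± 0.05. PSAF, for example, read 1668 and 1591 CPM in WT and 2219 and 2220.5 CPM in agb1. Of 20 antenna genes 13 rose (median 0.28), LHCA2 from 2616 and 2502 CPM to 3552 and 3532 CPM. Of 22 Calvin-Benson genes 20 rose (median 0.30). CP12-2, a small regulator that binds enzymes of the cycle in the dark, read 47.2 and 43.4 CPM in WT and 83.0 and 70.3 CPM in agb1 (0.76 ± 0.07, adjusted p = 5.85e-09), and phosphoglycerate kinase PGK1 read 534 and 513 CPM in WT and 748 and 748 CPM in agb1 (0.52 ± 0.05, adjusted p = 6.82e-09). Of 22 chlorophyll synthesis genes 11 rose (median 0.18) (6 to 7 higher without any 1 library), or 6 with library totals alone. PORB, a protochlorophyllide reductase, read 184 and 185 CPM in WT and 263 and 267 CPM in agb1 and PORC 32.1 and 32.5 CPM in WT and 41.2 and 39.5 CPM in agb1 (0.52 ± 0.05 and 0.32 ± 0.07). The medians of these 4 lists stayed positive under each scaling.

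In bulk RNA from whole seedlings, fewer cells of a type and less RNA per cell cannot be told apart, and this holds for every gene group below. Mesophyll markers summed to 28031 to 30086 CPM in the WT libraries and 43291 to 43421 CPM in agb1. Most of each sum is LHCB1.3. Of these markers 4 of 5 were called higher. LHCB1.3, LHCB2.1, RBCS1A and RBCS3B are themselves antenna or Rubisco genes, so the markers are not separate from the photosynthesis genes above. LHCB2.1, the marker not called, read 1936 and 1756 CPM in WT and 1921 and 1973 CPM in agb1. The part of mesophyll markers in the gain of the photosynthesis lists was not tested.

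Plastid-encoded genes showed no clear direction. The summed plastid level was 23271 to 25598 CPM in WT and 22367 to 32236 CPM in agb1, so the groups overlapped. The result rested on single libraries: 3 of 88 plastid genes rose with all libraries, 63 rose without agb1 replicate 1, and without agb1 replicate 2 there was 1 higher and 8 were lower.

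Of 47 starch and sugar genes, 24 rose and 10 fell (median 0.25). PHS1, the plastid starch phosphorylase, read 115 and 122 CPM in WT and 188 and 183 CPM in agb1 (0.64 ± 0.06, adjusted p = 9.25e-10). The branching enzyme SBE2.1 read 112 and 109 CPM in WT and 165 and 163 CPM in agb1 (0.57 ± 0.05, adjusted p = 4.24e-09), and BAM3, the chloroplast beta-amylase that degrades starch at night, read 93.6 and 95.7 CPM in WT and 141 and 138 CPM in agb1 (0.56 ± 0.05, adjusted p = 5.83e-09). Genes of starch synthesis and of starch breakdown were thus both among those that rose. QQS, above, was the largest decrease in the list.

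Of 53 photoreceptor and light signalling genes, 3 rose and 11 fell (median -0.08) (1 higher and 7 lower with DESeq2, 1 higher without WT replicate 2 or agb1 replicate 1 and 5 to 7 lower without WT replicate 1, WT replicate 2 or agb1 replicate 2). The B-box proteins BBX25 and BBX28, which repress HY5 activity, were both lower. BBX25 read 37.0 and 35.4 CPM in WT and 27.3 and 24.3 CPM in agb1 (-0.48 ± 0.08, adjusted p = 2.00e-05), and BBX28 read 56.9 and 56.9 CPM in WT and 42.8 and 42.0 CPM in agb1 (-0.42 ± 0.06, adjusted p = 8.43e-06). HFR1, an antagonist of PIF factors, read 126 and 132 CPM in WT and 104 and 102 CPM in agb1 (-0.32 ± 0.06, adjusted p = 1.05e-04), and CIB1, a factor that binds CRY2, read 30.8 and 27.6 CPM in WT and 22.6 and 20.8 CPM in agb1 (-0.43 ± 0.08, adjusted p = 3.69e-04). In the clock list 5 of 22 genes rose and 7 fell (2 higher with DESeq2 and 2 to 3 higher without any 1 library). CCA1, a morning repressor of the clock, read 60.0 and 62.5 CPM in WT and 44.9 and 43.1 CPM in agb1 (-0.48 ± 0.07, adjusted p = 1.36e-05), the log2 fold changes of LNK3 and LNK4, both called, were -0.43 ± 0.09 and -0.44 ± 0.07, and PRR5, expressed later in the day, read 106 and 105 CPM in WT and 132 and 133 CPM in agb1 (0.33 ± 0.05, adjusted p = 3.35e-05). The labels do not give the time of day of harvest.

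**Figure D3:**
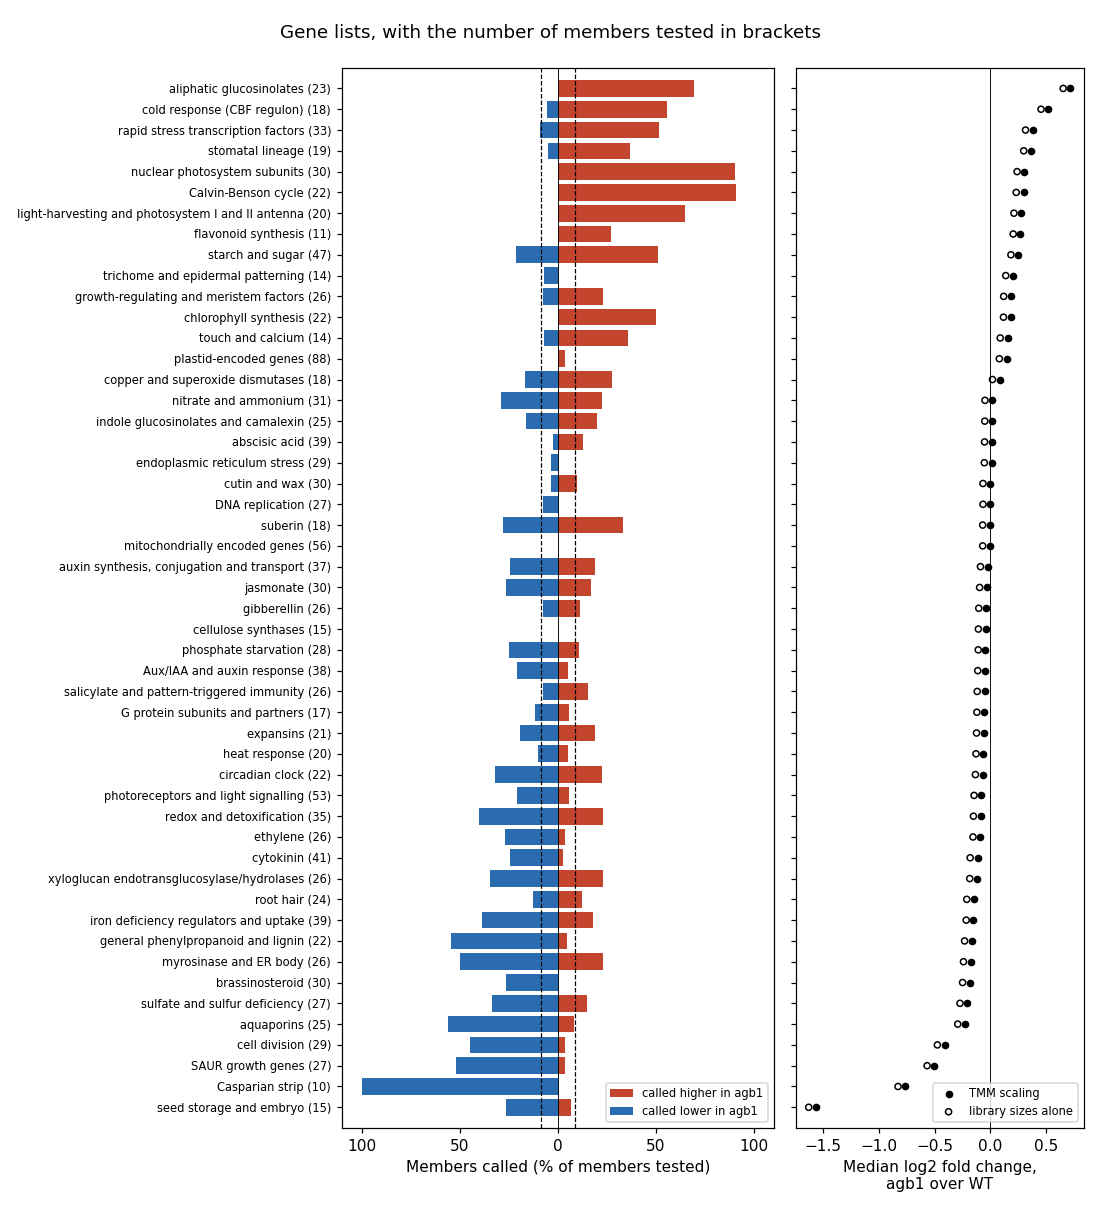
Left, the percent of tested members of each gene list called higher (red) or lower (blue) in agb1, with dashed lines at the percent over all loci tested (8.76 higher and 8.41 lower). Right, the median log2 fold change with TMM scaling (filled) and with library totals alone (open); photosynthesis, cold and aliphatic glucosinolate lists lie to the right of 0 and Casparian strip, SAUR and cell division lists to the left under both.

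CBF factors bind the CRT/DRE element and switch on cold-protective proteins, and ZAT, ERF and WRKY factors respond within minutes to many stimuli. Of 33 rapid stress transcription factors, 17 rose and 3 fell (median 0.38) (1 lower without agb1 replicate 2). ZAT10, a zinc finger repressor, read 16.6 and 16.3 CPM in WT and 52.2 and 57.3 CPM in agb1 (1.73 ± 0.10, adjusted p = 1.79e-13). WRKY40, a regulator of immunity and abscisic acid responses, read 5.09 and 4.45 CPM in WT and 17.2 and 19.5 CPM in agb1 (1.93 ± 0.13, adjusted p = 2.52e-12), and ERF105 read 13.5 and 13.2 CPM in WT and 43.5 and 42.6 CPM in agb1 (1.69 ± 0.11, adjusted p = 8.62e-13). The 3 genes that fell, WRKY15, ANAC055 and NAC032, moved by -0.28 ± 0.07, -0.47 ± 0.09 and -0.33 ± 0.10; they were named after their values were seen.

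Of 18 cold-response genes, 10 rose and 1 fell (median 0.52). CBF2, which activates the regulon, read 11.5 and 9.25 CPM in WT and 30.0 and 31.7 CPM in agb1 (1.56 ± 0.10, adjusted p = 2.31e-12). COR78, a desiccation-protective protein also called RD29A, read 262 and 273 CPM in WT and 458 and 462 CPM in agb1 (0.78 ± 0.05, adjusted p = 2.08e-12), and COR15B, a chloroplast stroma protein that stabilizes membranes during freezing, read 16.7 and 15.4 CPM in WT and 38.9 and 38.5 CPM in agb1 (1.27 ± 0.09, adjusted p = 9.23e-12). ZAT12 read 13.4 and 11.2 CPM in WT and 36.6 and 38.0 CPM in agb1 (1.59 ± 0.11, adjusted p = 5.21e-12). The one member that fell was RD29B, a neighbour of COR78 that responds mostly to abscisic acid, at 26.2 and 28.0 CPM in WT and 14.7 and 14.9 CPM in agb1 (-0.87 ± 0.08, adjusted p = 4.46e-09); it was named after its values were seen. Both genotypes had the same time at 4 degrees before the light treatments.

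Upstream sequences are shown for 4 genes that rose, COR78 and CBF2 of the cold list, RRTF1 and CHS, each with a matched motif in capitals. Each stretch is the 300 bases before the annotated gene start, written 5′ to 3′ on the gene's own strand from TAIR10.1, and none overlaps another annotated locus. In COR78, capitals mark the CRT/DRE core in either form, GCCGAC or ACCGAC; in CBF2, RRTF1 and CHS they mark the G-box CACGTG, which bZIP factors such as HY5 and bHLH factors such as PIFs bind.
COR78 (chr5:21240417-21240716, plus strand): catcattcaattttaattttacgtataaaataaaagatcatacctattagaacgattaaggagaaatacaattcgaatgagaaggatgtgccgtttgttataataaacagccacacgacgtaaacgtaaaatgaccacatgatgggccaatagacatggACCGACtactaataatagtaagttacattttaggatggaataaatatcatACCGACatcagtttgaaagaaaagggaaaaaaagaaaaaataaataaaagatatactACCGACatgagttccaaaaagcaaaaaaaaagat
CBF2 (chr4:13016236-13016535, minus strand): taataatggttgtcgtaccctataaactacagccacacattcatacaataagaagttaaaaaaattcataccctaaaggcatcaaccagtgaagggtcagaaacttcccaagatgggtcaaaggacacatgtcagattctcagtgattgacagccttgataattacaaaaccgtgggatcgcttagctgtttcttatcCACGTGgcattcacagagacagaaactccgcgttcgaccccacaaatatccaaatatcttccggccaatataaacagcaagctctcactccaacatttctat
RRTF1 (chr4:16451576-16451875, plus strand): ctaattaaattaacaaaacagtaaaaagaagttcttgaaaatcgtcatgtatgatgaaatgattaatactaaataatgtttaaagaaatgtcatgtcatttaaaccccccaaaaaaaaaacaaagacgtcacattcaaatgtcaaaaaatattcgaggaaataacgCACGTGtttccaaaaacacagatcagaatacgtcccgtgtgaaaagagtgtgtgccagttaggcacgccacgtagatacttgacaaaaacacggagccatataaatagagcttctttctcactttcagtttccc
CHS (chr5:4488176-4488475, plus strand): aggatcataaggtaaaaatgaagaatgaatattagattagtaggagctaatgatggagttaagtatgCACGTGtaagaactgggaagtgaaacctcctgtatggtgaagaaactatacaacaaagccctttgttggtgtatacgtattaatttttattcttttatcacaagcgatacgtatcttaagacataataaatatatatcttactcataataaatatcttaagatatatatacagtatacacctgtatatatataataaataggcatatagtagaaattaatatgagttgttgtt

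The 3 matches in COR78 begin 141, 91 and 34 bases before the gene start. A CRT/DRE core of either form, on either strand, was present in 300 upstream bases of 8 of the 18 cold genes and of 4 of the 10 that rose, against 9.01% of all 20550 nuclear loci with such a stretch. Among all loci called higher the share was 9.9% and among those called lower 8.28%. Most loci that changed in agb1 thus hold no such core in this window, and the share differs little from that of all loci. The form ACCGAC was added after the values were seen. GCCGAC alone, the planned core, was in 3 of the 18 cold genes and in 3.32% of all loci. A G-box lay upstream of 9.4% of loci called higher, 8.74% of those called lower and 8.03% of all. It was in 7 of the 27 photosystem genes that rose (25.9%), in 2 of 13 antenna genes, 3 of 10 cold genes and 2 of 16 aliphatic glucosinolate genes that rose, and in 1 of the 17 rapid stress factors that rose (5.88%), which is RRTF1. The W-box cores TTGACC and TTGACT, bound by WRKY factors, were in 28.0% of loci called higher, 36.0% of those called lower and 32.0% of all, and the GCC box GCCGCC, bound by ERF factors, in 2.27%, 1.55% and 2.36%. These are counts of letters in a fixed window.

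Touch and calcium genes respond quickly to mechanical stimuli. Of 14 genes of this list 5 rose and 1 fell (median 0.15). TCH4, an enzyme that remodels xyloglucan and gives its name to the touch genes, read 126 and 119 CPM in WT and 179 and 189 CPM in agb1 (0.59 ± 0.06, adjusted p = 1.81e-08), and the calmodulin-like TCH2 and CML23 rose by 0.59 ± 0.08 and 0.92 ± 0.13. The labels do not describe how seedlings were handled at harvest.

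In the salicylate and pattern-triggered immunity list, 4 of 26 genes rose and 2 fell (median -0.05) (2 higher and none lower with DESeq2 and none lower without any 1 library). SID2, the isochorismate synthase of salicylate synthesis, read 15.7 and 14.7 CPM in WT and 25.5 and 26.9 CPM in agb1 (0.78 ± 0.09, adjusted p = 2.04e-07), and SOBIR1, a receptor kinase adaptor, read 43.0 and 40.03 CPM in WT and 52.3 and 51.9 CPM in agb1 (0.33 ± 0.07, adjusted p = 5.43e-04). PR1, a salicylate marker, was very low at 0.134 and 0.153 CPM in WT and 1.86 and 0.824 CPM in agb1, and its call (3.21 ± 0.56, adjusted p = 7.80e-05) rests on few reads. In the jasmonate list 5 of 30 rose and 8 fell: the repressor JAZ1 read 21.8 and 22.1 CPM in WT and 35.0 and 32.8 CPM in agb1 (0.63 ± 0.09, adjusted p = 2.28e-06), while the lipoxygenase LOX2, a jasmonate synthesis enzyme, read 9.83 and 10.7 CPM in WT and 5.42 and 5.77 CPM in agb1 (-0.88 ± 0.14, adjusted p = 2.93e-05). In the ethylene list ACS6 alone rose and 7 of 26 fell. EBF1 and EBF2, F-box proteins that degrade the ethylene regulator EIN3, were among them. EBF1 read 108 and 116 CPM in WT and 83.1 and 89.3 CPM in agb1 (-0.38 ± 0.06, adjusted p = 1.73e-05), and EBF2 read 365 and 345 CPM in WT and 285 and 303 CPM in agb1 (-0.27 ± 0.05, adjusted p = 4.20e-04). In the abscisic acid list 5 of 39 rose and 1 fell, no larger a share than the 17.2% called over all loci. The hydroxylase CYP707A3, which breaks abscisic acid down, read 8.63 and 6.54 CPM in WT and 16.9 and 18.5 CPM in agb1 (1.21 ± 0.13, adjusted p = 1.79e-08), and the dehydrin RAB18 read 21.4 and 23.7 CPM in WT and 37.4 and 30.9 CPM in agb1 (0.61 ± 0.08, adjusted p = 2.97e-06). The embryo regulator ABI3 read 1.92 and 1.53 CPM in WT and 5.70 and 6.46 CPM in agb1 (1.79 ± 0.20, adjusted p = 7.23e-08).

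Root endodermis genes formed the most uniform decrease among the lists. The Casparian strip is a lignin band that seals the endodermis, so that water and nutrients pass through cells; CASP proteins mark its place and MYB36 switches its genes on. All 10 genes of the list fell, at a median log2 fold change of -0.76. CASP1 read 104 and 93.0 CPM in WT and 54.5 and 58.9 CPM in agb1 (-0.80 ± 0.07, adjusted p = 4.87e-10) and CASP2 37.6 and 35.8 CPM in WT and 19.9 and 21.3 CPM in agb1 (-0.84 ± 0.08, adjusted p = 3.80e-09). No agb1 library reached the WT range for either gene. ESB1, a dirigent-domain protein needed for the lignin band, read 144 and 129 CPM in WT and 82.5 and 80.3 CPM in agb1 (-0.74 ± 0.06, adjusted p = 1.84e-10), UCC1 48.7 and 49.7 CPM in WT and 28.8 and 28.5 CPM in agb1 (-0.78 ± 0.07, adjusted p = 6.59e-10) and PER64, a peroxidase that polymerizes lignin, 49.4 and 49.0 CPM in WT and 32.5 and 27.5 CPM in agb1 (-0.71 ± 0.07, adjusted p = 1.10e-08). MYB36 itself read 10.1 and 10.6 CPM in WT and 7.05 and 7.55 CPM in agb1 (-0.51 ± 0.12, adjusted p = 0.00319). Leaving out 1 library kept between 8 and 10 of the calls; without agb1 replicate 1, MYB36 (adjusted p = 0.0598) and AT4G20140, a leucine-rich repeat receptor kinase (adjusted p = 0.0911), were no longer called, and without WT replicate 2 AT4G20140 was not (adjusted p = 0.0525).

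Of 21 root markers tested, 11 fell and 2 rose (none higher with DESeq2 and none to 1 higher without any 1 library). Of these markers, 8 are Casparian strip genes already counted. Of the other 13, 3 fell and 2 rose. The summed level of all 21 was 4677 to 4694 CPM in the WT libraries and 3219.8 to 3236 CPM in agb1. Most of that sum is PYK10, a beta-glucosidase of root ER bodies, which read 4143 and 4169 CPM in WT and 2874 and 2851 CPM in agb1 (-0.54 ± 0.04, adjusted p = 2.07e-10). SCR, which specifies the endodermis, read 37.5 and 34.3 CPM in WT and 32.8 and 33.4 CPM in agb1 (-0.12 ± 0.07, adjusted p = 0.308) and was not called. Its partner SHR read 28.2 and 22.04 CPM in WT and 20.5 and 19.9 CPM in agb1 (-0.32 ± 0.10, adjusted p = 0.0185), a call lost with DESeq2 (adjusted p = 0.105) and without WT replicate 1, agb1 replicate 1 or agb1 replicate 2 (adjusted p = 0.538, 0.058 and 0.0962). Among root hair markers, RHD6, RSL2, RSL4, COBL9, EXPA7 and EXPA18 were not called, with log2 fold changes from -0.49 ± 0.25 to -0.20 ± 0.12, and RHD2, an NADPH oxidase of hair tips, read 14.8 and 16.8 CPM in WT and 11.4 and 11.6 CPM in agb1 (-0.45 ± 0.11, adjusted p = 0.0029), though not called with DESeq2 (adjusted p = 0.0574) or without WT replicate 2 (adjusted p = 0.0687). The root stem cell genes PLT1 and PLT2 were low. PLT1 read 1.56 and 1.84 CPM in WT and 3.33 and 1.85 CPM in agb1 and was not called (0.64 ± 0.29, adjusted p = 0.136), and PLT2 read 1.07 and 1.02 CPM in WT and 2.201 and 1.85 CPM in agb1 (0.96 ± 0.31, adjusted p = 0.0303). DESeq2 did not call PLT2 (adjusted p = 0.244), and leaving out any 1 library ended its call (adjusted p from 0.0642 to 0.252). No tested root marker was at 0 in any library, and WOX5 had too few reads to be tested. Root markers were thus detected in both genotypes. Whether the endodermal genes fell with the amount of root tissue was not tested.

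**Figure D4:**
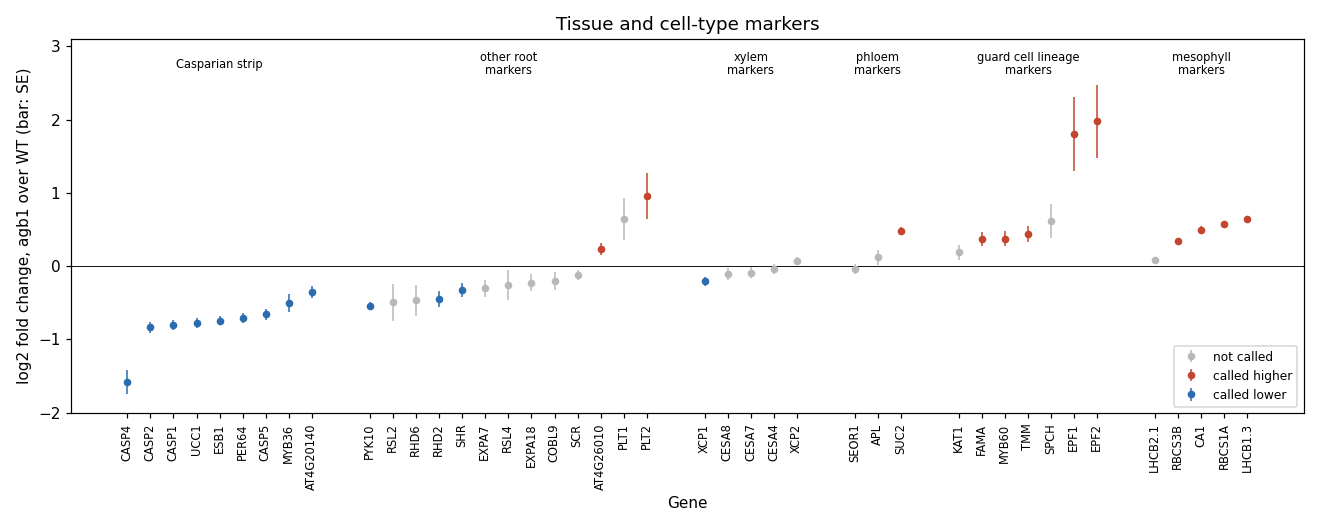
log2 fold change of agb1 over WT with its standard error for tested Casparian strip genes and for markers of root, xylem, phloem, the guard cell lineage and mesophyll. All Casparian strip genes shown lie below 0 and are called lower, while most root hair and xylem markers are grey, that is not called.

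Many lignin and water channel genes fell. The lignin list includes PER64, already described with the Casparian strip genes. Of 22 phenylpropanoid and lignin genes, 12 fell and 1 rose (median -0.17) (7 lower without WT replicate 1). The peroxidase PRX72 read 124 and 110.4 CPM in WT and 59.2 and 59.8 CPM in agb1 (-0.98 ± 0.06, adjusted p = 6.84e-13), the laccase LAC11 55.7 and 53.5 CPM in WT and 31.8 and 33.8 CPM in agb1 (-0.74 ± 0.07, adjusted p = 2.51e-09) and CCR1, the reductase at the entry of monolignol synthesis, 130.3 and 123 CPM in WT and 102 and 92.2 CPM in agb1 (-0.38 ± 0.06, adjusted p = 1.66e-05). Xylem markers were nearly level, with summed CPM of 293 to 299.6 in WT and 285 to 292 in agb1, and XCP1 was the only one of 5 called (-0.21 ± 0.06, adjusted p = 0.0195); that call was lost with DESeq2 (adjusted p = 0.104) and without WT replicate 1, WT replicate 2 or agb1 replicate 1 (adjusted p = 0.121, 0.0712 and 0.248). Of 25 aquaporins, 14 fell and 2 rose (median -0.23) (8 lower without WT replicate 1). The tonoplast channels TIP2;2 and TIP2;3 were both lower. TIP2;2 read 643 and 597 CPM in WT and 449 and 453 CPM in agb1 (-0.46 ± 0.06, adjusted p = 2.98e-07), and TIP2;3 read 244 and 231 CPM in WT and 157 and 149.8 CPM in agb1 (-0.63 ± 0.06, adjusted p = 7.22e-09). The plasma membrane channel PIP2;7 read 1328 and 1233 CPM in WT and 1020.3 and 1043 CPM in agb1 (-0.31 ± 0.05, adjusted p = 9.04e-05). NIP6;1, a boric acid channel of shoot nodes, went the other way at 5.81 and 6.08 CPM in WT and 10.6 and 10.5 CPM in agb1 (0.83 ± 0.13, adjusted p = 2.61e-05). Of 18 suberin genes, 6 rose and 5 fell (3 higher with DESeq2 and 2 higher without agb1 replicate 2). The feruloyl transferase ASFT read 48.4 and 47.6 CPM in WT and 64.0 and 68.2 CPM in agb1 (0.46 ± 0.06, adjusted p = 3.06e-06), whereas the fatty alcohol-forming reductase FAR1 read 54.6 and 59.7 CPM in WT and 36.8 and 37.0 CPM in agb1 (-0.63 ± 0.07, adjusted p = 2.31e-08).

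The largest losses in CPM were in PYK10, described above, and in 5 other abundant genes. TIP1;2, a tonoplast water channel, read 5112 and 4658 CPM in WT and 4238 and 4365 CPM in agb1 (-0.18 ± 0.05, adjusted p = 0.0169); it was not called without WT replicate 1, agb1 replicate 1 or agb1 replicate 2 (adjusted p = 0.275, 0.148 and 0.0512). The catalase CAT3 read 4020.4 and 3785 CPM in WT and 3292 and 3404 CPM in agb1 (-0.22 ± 0.05, adjusted p = 9.07e-04). MLP34, a major latex protein-like gene, read 1341 and 1192 CPM in WT and 898 and 862 CPM in agb1 (-0.52 ± 0.06, adjusted p = 3.28e-08). The protease gene AT4G11320 read 1172 and 1108 CPM in WT and 784 and 800.4 CPM in agb1 (-0.53 ± 0.05, adjusted p = 5.33e-09), and AHA2 is described with iron uptake.

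NRT1.5, which loads nitrate into the root xylem, read 540.5 and 524 CPM in WT and 208 and 204 CPM in agb1 (-1.37 ± 0.05, adjusted p = 6.54e-18). This was the lowest p in the nitrate and ammonium list, in which 9 of 31 fell and 7 rose (3 higher without WT replicate 2 or agb1 replicate 2 and 5 lower without WT replicate 1). The ammonium transporter AMT1;3 read 16.7 and 17.43 CPM in WT and 9.93 and 10.4 CPM in agb1 (-0.74 ± 0.11, adjusted p = 4.42e-06), the glutamine synthetase GLN1;2 276 and 264 CPM in WT and 212 and 202 CPM in agb1 (-0.38 ± 0.05, adjusted p = 3.59e-06) and the asparagine synthetase ASN2 149 and 148 CPM in WT and 204 and 201 CPM in agb1 (0.45 ± 0.05, adjusted p = 3.10e-07). The high-affinity phosphate transporters PHT1;1 and PHT1;4 fell. PHT1;1 read 39.7 and 39.5 CPM in WT and 18.4 and 18.8 CPM in agb1 (-1.09 ± 0.08, adjusted p = 5.43e-12), and PHT1;4 read 21.4 and 21.2 CPM in WT and 12.2 and 13.5 CPM in agb1 (-0.73 ± 0.10, adjusted p = 1.32e-06). PHT1;2 fell as well (-1.15 ± 0.10, adjusted p = 7.45e-10); it is a close copy of PHT1;1, and their reads may not be separable. In the phosphate list 7 of 28 fell and 3 rose (1 higher with DESeq2 and 1 higher without any 1 library).

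The sulfate transporter of root uptake, SULTR1;2, read 96.3 and 97.2 CPM in WT and 47.1 and 47.6 CPM in agb1 (-1.03 ± 0.06, adjusted p = 6.13e-14), and the long-distance transporter SULTR2;1 read 61.0 and 58.9 CPM in WT and 88.1 and 87.3 CPM in agb1 (0.55 ± 0.06, adjusted p = 1.09e-07). The 2 transporters thus moved in opposite directions. The reductase APR3 and the sulfurylase APS4, both of sulfate assimilation, fell, with log2 fold changes of -0.39 ± 0.07 and -0.29 ± 0.06, and 9 of 27 sulfur genes fell against 4 that rose (2 higher and 4 lower with DESeq2, 2 higher without agb1 replicate 2 and 4 lower without agb1 replicate 1 or agb1 replicate 2).

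In the iron list 15 of 39 genes fell and 7 rose (9 lower with DESeq2 and 8 lower without agb1 replicate 1). AHA2, the proton pump that acidifies the soil around roots, read 1416 and 1325 CPM in WT and 889 and 925 CPM in agb1 (-0.60 ± 0.05, adjusted p = 4.47e-10). The metal transporter NRAMP1 read 78.3 and 74.3 CPM in WT and 53.8 and 51.9 CPM in agb1 (-0.53 ± 0.06, adjusted p = 1.43e-07), PDR9, which exports coumarins, 126 and 125 CPM in WT and 84.3 and 93.3 CPM in agb1 (-0.50 ± 0.06, adjusted p = 2.25e-07), and the iron storage protein FER1 56.9 and 53.4 CPM in WT and 92.9 and 94.9 CPM in agb1 (0.77 ± 0.06, adjusted p = 2.97e-10). Among these named genes, picked by lowest p, the uptake components were lower and the storage protein higher. In the whole list 3 genes rose at least 2-fold, up to a log2 fold change of 1.74. None fell that far, and the lowest value was -0.94. In the copper list 5 of 18 rose and 3 fell (3 higher with DESeq2 and 2 higher without WT replicate 2 or agb1 replicate 2). FSD1, the iron superoxide dismutase of plastids, read 45.5 and 46.6 CPM in WT and 80.2 and 71.4 CPM in agb1 (0.72 ± 0.07, adjusted p = 1.64e-09), and plantacyanin, ARPN, fell from 7.15 and 6.65 CPM to 1.81 and 1.85 CPM (-1.91 ± 0.23, adjusted p = 2.91e-07).

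**Figure D5:**
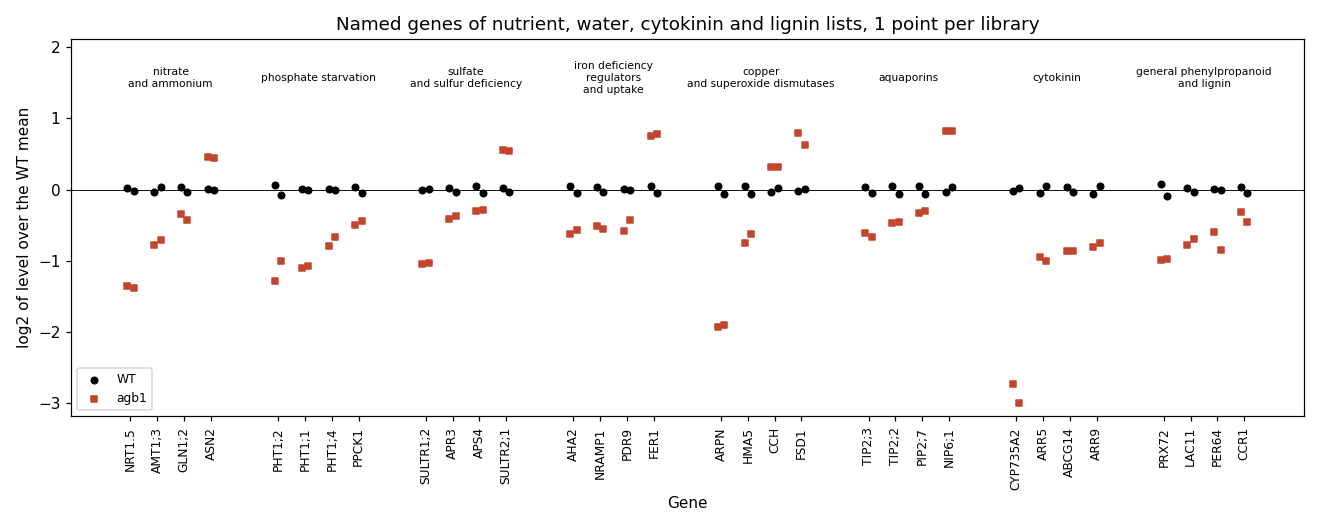
Each point is 1 library: the log2 of its CPM over the WT mean, for the called genes with the lowest p in 8 lists. For every gene shown the 2 agb1 points (red squares) lie apart from the 2 WT points (black), below them for NRT1.5, PHT1;1, SULTR1;2 and CYP735A2 and above them for ASN2, SULTR2;1, FER1, CCH, FSD1 and NIP6;1.

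Of 41 cytokinin genes 10 fell and 1 rose (median -0.11), and 10 fell with DESeq2 as well. Besides CYP735A2, ABCG14, which carries root-made cytokinin to the shoot, read 87.0 and 82.8 CPM in WT and 46.7 and 46.8 CPM in agb1 (-0.86 ± 0.06, adjusted p = 5.88e-12). The type-A response regulators ARR5 and ARR9, are induced by cytokinin. ARR5 read 24.6 and 26.2 CPM in WT and 13.2 and 12.6 CPM in agb1 (-0.97 ± 0.10, adjusted p = 9.27e-09), and ARR9 read 39.1 and 42.5 CPM in WT and 23.4 and 24.4 CPM in agb1 (-0.77 ± 0.08, adjusted p = 1.08e-08). Synthesis, transport and primary response genes were all among those that fell. The 1 gene of the list that rose did so by 2.085 on the log2 scale, and DESeq2 called none higher.

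SAUR proteins promote cell expansion in response to auxin; 14 of 27 SAUR genes fell and 1 rose (median -0.50) (8 lower with DESeq2 and 8 lower without WT replicate 2). SAUR14 read 18.1 and 18.1 CPM in WT and 13.6 and 10.2 CPM in agb1 (-0.60 ± 0.11, adjusted p = 1.68e-04), SAUR50 20.7 and 23.3 CPM in WT and 15.2 and 14.7 CPM in agb1 (-0.56 ± 0.09, adjusted p = 5.08e-05) and SAUR6, the gene that rose, 19.2 and 19.4 CPM in WT and 28.9 and 26.0 CPM in agb1 (0.51 ± 0.09, adjusted p = 4.98e-05). In the auxin response list 8 of 38 fell and 2 rose (median -0.05) (1 higher with DESeq2, 1 higher without agb1 replicate 1 and 5 lower without WT replicate 1, WT replicate 2 or agb1 replicate 2). The repressor IAA3 read 63.6 and 65.3 CPM in WT and 43.8 and 38.1 CPM in agb1 (-0.65 ± 0.07, adjusted p = 1.82e-08) and the response factor ARF5 25.2 and 25.1 CPM in WT and 30.7 and 33.9 CPM in agb1 (0.35 ± 0.08, adjusted p = 0.00118). Among 37 genes of auxin synthesis, conjugation and transport 7 rose and 9 fell (3 higher without WT replicate 2 or agb1 replicate 2 and 5 lower without agb1 replicate 1). GH3.3, which conjugates auxin to amino acids, read 8.89 and 7.62 CPM in WT and 19.6 and 20.5 CPM in agb1 (1.27 ± 0.11, adjusted p = 1.80e-10), and YUC6, a synthesis enzyme, read 6.08 and 6.29 CPM in WT and 2.99 and 3.37 CPM in agb1 (-0.96 ± 0.18, adjusted p = 1.53e-04), a call lost with 1 model per locus (adjusted p = 0.125).

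Of 30 brassinosteroid genes 8 fell, or 14 with library totals alone, and the rest did not pass the test (median -0.18) (5 lower without agb1 replicate 2). The transcription factors BEE1 and BEE3 were lower. BEE1 read 19.4 and 20.09 CPM in WT and 14.3 and 15.4 CPM in agb1 (-0.41 ± 0.09, adjusted p = 0.00185), and BEE3 read 33.4 and 35.1 CPM in WT and 26.1 and 25.3 CPM in agb1 (-0.41 ± 0.07, adjusted p = 1.46e-04). BEE1 was not called without agb1 replicate 1 (adjusted p = 0.054) or when only the most-read model of each locus was counted (adjusted p = 0.0679). Of 26 gibberellin genes 3 rose and 2 fell (1 higher with DESeq2 and 1 to 5 higher without WT replicate 1, WT replicate 2 or agb1 replicate 1). GASA1, a small peptide gene, read 274 and 286 CPM in WT and 444 and 420.5 CPM in agb1 and its relative GASA6 66.3 and 67.3 CPM in WT and 43.4 and 41.2 CPM in agb1 (0.63 ± 0.05 and -0.66 ± 0.07). Wall-modifying genes were also mixed: 4 expansins rose and 4 fell of 21 (2 higher without WT replicate 2), and 6 xyloglucan enzymes rose and 9 fell of 26. XTH9 read 40.8 and 37.9 CPM in WT and 77.4 and 76.4 CPM in agb1 (0.97 ± 0.07, adjusted p = 5.78e-12) and XTH18 153 and 149.7 CPM in WT and 91.5 and 89.97 CPM in agb1 (-0.74 ± 0.06, adjusted p = 2.49e-11). EXPA1 read 114 and 101 CPM in WT and 76.5 and 73.5 CPM in agb1 (-0.52 ± 0.06, adjusted p = 3.74e-07). For the 15 cellulose synthases no call was made by edgeR with TMM scaling or by DESeq2, 2 passed an unadjusted p under 0.05, and 1 was called lower with library totals alone.

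Of 29 mitotic genes 13 fell and 1 rose, at a median of -0.41 (5 lower with DESeq2 and 5 to 8 lower without WT replicate 1, WT replicate 2 or agb1 replicate 1). CDKB2;1, a mitotic kinase, read 21.5 and 21.3 CPM in WT and 14.9 and 14.8 CPM in agb1 (-0.52 ± 0.09, adjusted p = 1.04e-04), the cyclin CYCB1;4 11.6 and 13.0 CPM in WT and 8.30 and 7.28 CPM in agb1 (-0.65 ± 0.12, adjusted p = 1.99e-04) and KNOLLE, KN, a syntaxin of the cell plate, 25.8 and 25.5 CPM in WT and 18.9 and 18.7 CPM in agb1 (-0.45 ± 0.08, adjusted p = 1.71e-04). Of 27 replication genes 2 fell, at a median of -0.00 (1 lower with DESeq2 and 1 lower without WT replicate 1 or agb1 replicate 2), among them the ribonucleotide reductase subunit TSO2 (-0.32 ± 0.07, adjusted p = 0.00174) and the kinase CDKA;1 (-0.25 ± 0.07, adjusted p = 0.00918), the latter not called with DESeq2 (adjusted p = 0.0628) or without WT replicate 1 or agb1 replicate 2 (adjusted p = 0.101 and 0.138).

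In shoot development, 6 of 26 growth-regulating and meristem factors rose and 2 fell (median 0.18) (3 higher and 1 lower with DESeq2, 2 higher without WT replicate 1 or agb1 replicate 1 and 1 lower without any 1 library). The receptor kinase CLV1, which limits the stem cell pool, read 165 and 164 CPM in WT and 213 and 225 CPM in agb1 (0.41 ± 0.05, adjusted p = 1.43e-06). KNAT1, a homeobox gene of the stem, read 27.5 and 30.8 CPM in WT and 20.4 and 20.4 CPM in agb1 (-0.51 ± 0.08, adjusted p = 3.11e-05), and TCP4, which limits leaf growth, read 20.6 and 21.2 CPM in WT and 28.4 and 34.3 CPM in agb1 (0.58 ± 0.09, adjusted p = 1.75e-05). In the stomatal lineage 7 of 19 rose and 1 fell (median 0.36) (1 higher with DESeq2 and 2 to 4 higher without WT replicate 1, WT replicate 2 or agb1 replicate 1). FAMA, which sets guard cell identity, read 15.3 and 15.03 CPM in WT and 20.09 and 18.9 CPM in agb1 (0.37 ± 0.10, adjusted p = 0.00746), and TMM, a receptor-like protein that spaces stomata, read 12.2 and 11.1 CPM in WT and 15.6 and 15.9 CPM in agb1 (0.43 ± 0.11, adjusted p = 0.00457). The peptide genes EPF1 and EPF2 were very low. EPF1 read 0.224 and 0.358 CPM in WT and 1.24 and 0.755 CPM in agb1, and EPF2 read 0.268 and 0.256 CPM in WT and 1.24 and 0.824 CPM in agb1. Neither was called without WT replicate 1 (adjusted p = 0.141 and 0.0502) or agb1 replicate 1 (adjusted p = 0.243 and 0.149). FAMA and TMM were not called with DESeq2 (adjusted p = 0.103 and 0.0536) or without WT replicate 2. FAMA was also not called without agb1 replicate 1. Guard cell lineage markers summed to 52.9 to 56.5 CPM in WT and 70.7 to 72.0 CPM in agb1. Of 7 of them 5 were called higher (none higher with DESeq2 and 1 to 3 higher without WT replicate 1, WT replicate 2 or agb1 replicate 1). ERECTA, a receptor kinase with roles in stomata and stem growth, read 54.5 and 54.1 CPM in WT and 65.2 and 70.5 CPM in agb1 (0.32 ± 0.07, adjusted p = 0.00108).

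Glucosinolates are sulfur-rich defence compounds. Aliphatic glucosinolates are made from methionine and indole ones from tryptophan. Of 23 aliphatic glucosinolate genes 16 rose, at a median of 0.72, and the other 7 did not pass the test. MYB28, their main activator, read 12.4 and 11.4 CPM in WT and 18.4 and 19.9 CPM in agb1 (0.68 ± 0.10, adjusted p = 1.50e-05), and the chain-elongation enzymes MAM1, MAM3 and IMD1 also rose. MAM1 read 4.42 and 4.29 CPM in WT and 10.6 and 9.62 CPM in agb1 (1.22 ± 0.15, adjusted p = 4.77e-07). MAM3 read 4.42 and 5.21 CPM in WT and 10.5 and 9.48 CPM in agb1 (1.06 ± 0.15, adjusted p = 5.75e-06). Both agb1 libraries lay above both WT libraries in each, and also for IMD1, at 8.45 and 8.13 CPM in WT and 15.6 and 15.04 CPM in agb1 (0.88 ± 0.12, adjusted p = 1.41e-06). Among 25 indole glucosinolate and camalexin genes 5 rose and 4 fell (median 0.02) (1 to 3 higher without any 1 library). CYP79B2, the entry enzyme from tryptophan, read 49.7 and 48.5 CPM in WT and 69.4 and 75.8 CPM in agb1 (0.56 ± 0.06, adjusted p = 6.92e-08), and the methyltransferase IGMT1 read 111 and 109 CPM in WT and 71.6 and 74.5 CPM in agb1 (-0.60 ± 0.06, adjusted p = 1.86e-08). The difference between the 2 lists was not tested.

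In the myrosinase and ER body list 13 of 26 genes fell and 6 rose (median -0.17). The jacalin lectins JAL31, JAL33 and JAL22, partners of PYK10 in a complex, all fell. JAL31 read 65.0 and 63.7 CPM in WT and 37.0 and 34.8 CPM in agb1 (-0.84 ± 0.07, adjusted p = 8.70e-11), and JAL33 read 370.5 and 357 CPM in WT and 201 and 195 CPM in agb1 (-0.88 ± 0.06, adjusted p = 8.04e-13). JAL22 followed at 531 and 506 CPM in WT and 342 and 349 CPM in agb1 (-0.59 ± 0.05, adjusted p = 5.81e-10). In the flavonoid list 3 genes were called, all higher: CHS, the flavonol synthase FLS1 at 3.08 and 2.35 CPM in WT and 6.04 and 6.18 CPM in agb1 (1.16 ± 0.21, adjusted p = 1.51e-04) and F3H at 10.1 and 10.5 CPM in WT and 13.7 and 13.4 CPM in agb1 (0.40 ± 0.12, adjusted p = 0.0219), the last of which was not called with DESeq2 (adjusted p = 0.236) or without any 1 library (adjusted p from 0.0731 to 0.141). Of the 20 flavonoid genes listed, 11 had enough reads to be tested. In the redox list 8 of 35 rose and 14 fell (4 higher without WT replicate 2 or agb1 replicate 1). The plastid peroxiredoxin PRXQ read 80.7 and 83.5 CPM in WT and 138 and 127 CPM in agb1 (0.70 ± 0.06, adjusted p = 3.09e-10), and the glutathione transferase GSTF2 read 258 and 235 CPM in WT and 155 and 171 CPM in agb1 (-0.60 ± 0.06, adjusted p = 1.01e-08).

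Transcripts of seed storage and embryo genes were low in both genotypes. Of 15 tested, 4 fell and 1, ABI3, rose. The cruciferin CRA1 read 3.58 and 4.65 CPM in WT and 0.959 and 1.099 CPM in agb1 (-1.99 ± 0.26, adjusted p = 1.22e-06), the oleosin OLEO2 4.56 and 4.96 CPM in WT and 1.81 and 1.17 CPM in agb1 (-1.64 ± 0.23, adjusted p = 4.25e-06) and the peroxiredoxin PER1 2.37 and 2.61 CPM in WT and 1.07 and 0.549 CPM in agb1 (-1.56 ± 0.31, adjusted p = 3.94e-04). Of 20 heat-response genes 1 rose and 2 fell (1 lower with DESeq2 and 1 lower without WT replicate 1, WT replicate 2 or agb1 replicate 2). Of 29 endoplasmic reticulum stress genes 1 fell. For every list in this paragraph, the 17.2% called over all loci is the comparison. Of 30 cutin and wax genes 3 rose and 1 fell (1 higher with DESeq2 and 1 higher without WT replicate 1 or agb1 replicate 2). Of 24 root hair genes 3 rose and 3 fell (1 higher and 1 lower with DESeq2, none to 1 higher without WT replicate 2 or agb1 replicate 2 and 1 lower without WT replicate 1 or agb1 replicate 1). Of 14 trichome patterning genes 1 fell. For the 56 mitochondrially encoded genes neither edgeR with all libraries and TMM scaling nor DESeq2 made a call, and 1 had an unadjusted p under 0.05. Without agb1 replicate 2, 4 were lower. Without agb1 replicate 1, 1 was higher, and with library totals alone 1 was lower.

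Protein families defined by a shared product name, without reference to the lists, were ranked by median log2 fold change. Of 194 families with at least 10 loci tested, plastid-lipid associated fibrillins had the highest median (0.25, 6 of 10 higher). Next came terpenoid cyclases (0.24, 2 of 11 higher and 1 lower) and aldolases (0.20, 5 of 11 higher). ABC-2 type transporters (0.19, 3 of 18 higher) and thioredoxins (0.16, 12 of 40 higher and 3 lower) followed, then Tim17/Tim22/Tim23 import proteins (0.16, 2 of 11 higher). The lowest were O-methyltransferases (-0.39, 7 of 12 lower) and berberine-bridge enzymes (-0.38, 8 of 16 lower). Then came SAUR-like proteins (-0.32, 18 of 66 lower and 4 higher), DUF247 proteins (-0.29, 3 of 12 lower) and RmlC-like cupins (-0.27, 6 of 21 lower and 4 higher). The UPF0497 family to which CASP proteins belong followed (-0.26, 15 of 35 lower). Over all loci tested, 17.2% were called. All 12 kept their direction under each scaling.

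Called loci were spread over the 5 chromosomes, from 16.2% of loci tested on chromosome 3 to 17.9% on chromosome 2. Within 0.5 Mb of AGB1, 46 of 240 other loci were called (19.2%), against 17.3% of all nuclear loci and 2.04% to 26.4% over 111 windows of 1 Mb. RRTF1, the largest increase among the named genes, ends 23770 bases from the nearer end of AGB1, where that minus-strand gene stops. Whether the change of RRTF1 depends on its position was not tested.

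Direct tests set agb1 against each of the other mutants. It was higher than cry1 cry2 in 30 of 30 photosystem genes (median 2.57) and higher than hy5 in 29 (median 0.92), where 28.8% and 24.2% of all loci were called higher, 57.9% and 49.9% changed in either direction, and 17.1% and 10.4% did so at least 2-fold. LHCB1.3 read 6145 and 6239 CPM in hy5 and 2597 and 2434 CPM in cry1 cry2, far below the agb1 values (2.401 ± 0.05, adjusted p = 3.27e-25 and 3.70 ± 0.05, adjusted p = 5.03e-30). For Calvin-Benson genes the median difference from hy5 was 0.00, with 8 higher and 9 lower, and from cry1 cry2 it was 2.13. All 10 Casparian strip genes were lower in agb1 than in hy5 (median -1.85) and than in cry1 cry2 (median -1.94), where 25.7% and 29.1% of all loci were called lower. CASP1, for instance, read 204 and 221 CPM in hy5 and 219.5 and 199 CPM in cry1 cry2. NRT1.5 read 709 and 729 CPM and 888 and 884 CPM there (-1.80 ± 0.05, adjusted p = 8.55e-22 and -2.10 ± 0.05, adjusted p = 3.52e-24). CBF2 read 7.10 and 6.84 CPM and 2.49 and 3.23 CPM (2.15 ± 0.11, adjusted p = 1.29e-15 and 3.43 ± 0.14, adjusted p = 3.70e-19). These tests share the agb1 libraries with the comparison to WT and with each other. Against WT, the agb1 medians were 0.31 for photosystem genes and -0.76 for Casparian strip genes. The other mutants also lay away from WT in such genes. LHCB1.3 read 21901 and 20190 CPM in WT. CASP4 read 12.1 and 8.49 CPM in WT, 23.3 and 21.6 CPM in hy5 and 31.5 and 31.75 CPM in cry1 cry2.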

How the data were processed

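Per the labels, total RNA of whole seedlings was sequenced. The deposited files hold, per the file headers, whole-number read counts for each transcript model. The second column of each file, which holds the reads, was used. Alignment with Bowtie2 2.2.2 to TAIR10 is named in the submitters' processing notes; strand and multiple matches in counting are not described there. Counts were summed over the models of a locus. One fit over the 8 libraries estimated a mean for each genotype (edgeR 4.0.16, R 4.3.3; TMM scaling; low-count filter with a minimum count of 10), which left 4 residual degrees of freedom, and p-values were adjusted by Benjamini-Hochberg over 20695 loci. The standard error is the log2 fold change over the root of F. Members and gene lists were chosen with earlier results of these data known. Named genes are AGB1 and its partners, the 15 largest increases and decreases (called, non-overlapping between genotypes, mean 5 CPM or more), the 6 largest gains and losses in CPM, up to 4 called members of a list by lowest p and the marker genes; an item withheld is not reported here. Annotation and sequences are from TAIR10.1. Alternatives were DESeq2 1.42.0, RLE scaling, library totals alone, other filters, 2 genotypes only, a replicate block, 1 transcript model per locus, no organelle loci and leaving out each library. For counts, precision is limited by the 2 libraries per genotype.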

Additional observations from a re-analysis of the deposited data

How the results depend on the processing

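Of the loci called in each setting and in the main comparison, none changed direction. The count of 3553 called loci (1813 higher, 1740 lower) became 2059 (1059 and 1000) with DESeq2 and 393 (212 and 181) with a 2-fold minimum; library totals alone gave 2723 lower. Leaving out 1 library, which leaves a lone sample assumed to vary like the other groups, gave 2350 to 2477 called, 1188 to 1283 higher and 1134 to 1194 lower. With a 2-fold minimum, 2152 of 10326 loci differed from hy5 and 3530 of 11985 from cry1 cry2. Deviations of same-numbered libraries from their group means did not move together (r = -0.039 between WT and agb1), so the numbers were not taken as pairs; the fit with the replicate block called 3476. The cause of these differences was not tested. Small changes of loci with few reads have wide errors at this depth.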
